A study of Homo sapiens with 2 samples.

Results

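The clustered protocadherins are genes for cell-surface adhesion proteins of the cadherin family that lie in tandem on chromosome 5. They were taken as the protein-coding genes of that chromosome whose symbols start with PCDHA, PCDHB or PCDHG in the GENCODE annotation of GRCh37, where they span chr5:140165721-140892544 on the plus strand. The annotation holds 53 of them, in an alpha cluster of 15 genes, a beta cluster of 16 and a gamma cluster of 22. The count table of 57736 genes held 51, and PCDHB16 and PCDHGB5 had no matching identifier and were not analysed here. Of the 51, 48 had at least 1 read in either library and 41 had at least 10 reads in both libraries together, namely 12 alpha, 11 beta and 18 gamma genes. PCDHA2, PCDHA3 and PCDHB1 had no read.

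RNA-Seq had been performed on the human ovarian cancer line A1847, which has a high level of the arginine methyltransferase CARM1. The first library came from parental controls, labelled CARM1 wild type, and the second from CARM1 KO cells, made with a CRISPR lentiviral vector. Neither was given a drug according to the labels, and the parental cells are not described as carrying a control vector. The CARM1 KO cells are 1 clone and the parental controls a cell population, so that clone, vector and loss of CARM1 cannot be told apart. Each group has 1 library, so the values below have no replicate check and compare these 2 libraries rather than the conditions. The 95% intervals cover counting error only.

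The parental library held 30741953 reads and the CARM1 KO library 32300391, of which the clustered protocadherins took 0.00769% and 0.00715%. CARM1 itself had 975 parental and 380 KO reads, a level 2.65-fold lower (interval 2.35 to 2.99) and short of the 3-fold threshold used here. A cut by Cas9 need not remove the transcript, so this value checks the labels only by its direction. The library labels thus went with the lower CARM1 level. The libraries differed widely over the whole table: of 18563 genes with at least 10 reads, 12.7% were more than 3-fold higher and 11.8% more than 3-fold lower in CARM1 KO cells, and of the protein-coding genes among them 12.6% were higher and 9.26% lower. All folds are of counts scaled by TMM, which corrects for library size and composition.

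In neurons, where these genes are best known, each cell uses only some of them, and the resulting set of proteins on its surface lets cells tell themselves from others. Each gene of the alpha and gamma clusters has its own promoter and a large first exon that encodes the outer part of the protein, which is spliced to constant exons at the end of the cluster that encode the tail inside the cell. The beta genes lack such constant exons. Promoter choice depends on the architectural protein CTCF, on cohesin and on DNA methylation, and methylated, silent protocadherin promoters are known from several cancers.

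The way the alpha and gamma genes share sequence sets how far single genes can be told apart. In the reference the 15 alpha genes join the same 3 constant exons, and the 22 gamma genes join another 3. The joins of 4 genes that the results turn on are shown as 30 bases of GRCh37 from the plus strand, with the end of the variable exon in lower case and the start of the shared exon in capitals.
PCDHA10: gaccactctaggaagCCACGACAGCCCAAC
PCDHA11: aatcaccccggacagCCACGACAGCCCAAC
PCDHGB7: aagattcttaaacagCAAGCCCCGCCCAAC
PCDHGC3: gcccctcccggacagCAAGCCCCGCCCAAC
The lower-case parts lie at chr5:140238007-140238021, chr5:140251065-140251079, chr5:140799827-140799841 and chr5:140858099-140858113. The capitals start at chr5:140358534 in the alpha cluster and at chr5:140874374 in the gamma cluster, and read the same in every gene of the cluster. Of all stretches of 75 bases, the read length, in the reference transcripts, those found in no other clustered protocadherin made up 34.0% to 52.0% in the alpha genes, with a median of 46.0%. In the gamma genes the share was 45.8% to 55.4%, with a median of 53.2%, and in the beta genes 65.6% to 100%, with a median of 91.3%. Reads from the shared exons are divided among genes by RSEM, so that a cluster total does not depend on the division among the genes summed, while a single gene's count does. Reads given to PCDHGB5, which joins the same gamma exons, to PCDHB16 or to pseudogenes are outside the totals. How this division bore on single genes was not tested.

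The promoters also share sequence within a cluster. Protocadherin promoters are known for a conserved element with the core CGCT, and longer runs around it were searched on both strands from 250 bases before to 50 bases after each transcript start. The runs were chosen after these promoters had been read, so their presence is a description. TGTCGCT was found in 12 of 15 alpha promoters, GGTGGCG in 15 of 16 beta promoters and CGCCGCTG in 11 of 22 gamma promoters. Over all 19896 protein-coding promoters the shares were 2.22%, 10.4% and 6.10%, and that of CGCT, which lies within the first and last run, was 82.4%. The stretches of the genes with the largest differences or most reads are given as 30 bases each from the plus strand of GRCh37, with the run searched in capitals.
PCDHA6: gagccgcatgaTGTCGCTgtctaccatgaa
PCDHA10: aagccaccggaTGTCGCTgtcgtccacaaa
PCDHA11: taggcgcaaggTGTCGCTctttacttggtg
PCDHA12: cagtcacatgaTGTCGCTctacactcagaa
PCDHB2: aagagacgcggGGTGGCGctgcagccttag
PCDHB5: ttaggacgcctGGTGGCGctgcaggctaag
PCDHB6: tttgaacgcgtGGTGGCGgtacaagctaag
PCDHB8: tgaggacccgtGGTGGCGctgcaggataag
PCDHGB1: caacctctgggCGCCGCTGtcgaccaaaag
PCDHGB4: ctgactctgggCGCCGCTGttggccaaagt
PCDHGA10: aggactctgagCGCCGCTGttcacctacta
The alpha stretches are chr5:140207484-140207513, chr5:140235428-140235457, chr5:140248470-140248499 and chr5:140254831-140254860. The beta stretches are chr5:140474129-140474158, chr5:140514761-140514790, chr5:140529572-140529601 and chr5:140557358-140557387. The gamma stretches are chr5:140729594-140729623, chr5:140767186-140767215 and chr5:140792500-140792529. Genes that were higher and genes that were lower in CARM1 KO cells carry the same run, as PCDHA10 and PCDHA11 do. The window of PCDHGB7 does not hold CGCCGCTG.

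The summed reads of the 3 clusters went different ways, while the sum over all 51 genes was alike in both libraries within counting error. All members together had 2365 parental and 2310 CARM1 KO reads, 1.06-fold lower with an interval that took in no change (ratio 0.893 to 1.00). The alpha cluster had 777 and 1161 reads, 1.45-fold higher (1.32 to 1.59) in CARM1 KO cells. The beta cluster had 574 and 719 reads, 1.21-fold higher (1.09 to 1.36). The gamma cluster had 1014 and 430 reads, 2.44-fold lower (2.17 to 2.73). The alpha and gamma intervals lie on opposite sides of no change.

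The beta total rested on 1 gene. Without PCDHB5, the beta gene with most reads, the remaining 14 genes had 458 and 355 reads, 1.33-fold lower (1.16 to 1.53). The alpha total was 1.29-fold higher (1.16 to 1.43) without PCDHA6, and the gamma total 2.44-fold lower (2.14 to 2.79) without PCDHGC3. The direction of the alpha total therefore did not depend on the gene with most reads. PCDHGC3 was itself 2.42-fold lower, so leaving it out could hardly move the gamma total. The gamma total without PCDHGB7, which had 272 parental and 10 CARM1 KO reads, was not computed.

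Within the alpha cluster the totals of the subgroups went opposite ways, but not every gene followed. PCDHA11 was 7.57-fold lower, and the intervals of PCDHA7, PCDHA13 and PCDHAC2 took in no change. PCDHA1 to PCDHA13, whose promoters carry the shared run with 1 exception, PCDHA9, had 545 and 1001 reads, 1.78-fold higher (1.60 to 1.98). PCDHAC1 and PCDHAC2, the C-type genes, which in neurons are expressed in most cells rather than by choice, had 232 and 160 reads, 1.5-fold lower (1.22 to 1.84). In the gamma cluster the totals of all 3 subgroups were lower. The 12 A genes were 1.99-fold lower (1.61 to 2.47) with 262 and 136 reads. The 6 B genes were 2.75-fold lower (2.31 to 3.29) with 469 and 176 reads. The 3 C-type genes were 2.48-fold lower (1.99 to 3.10) with 283 and 118 reads. Much of each parental sum came from 1 gene: PCDHGA10 with 133 and 30 reads, PCDHGB7 with 272 and 10, PCDHGC3 with 265 and 113. Subgroup totals without these genes were not computed.

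**Figure D1:**
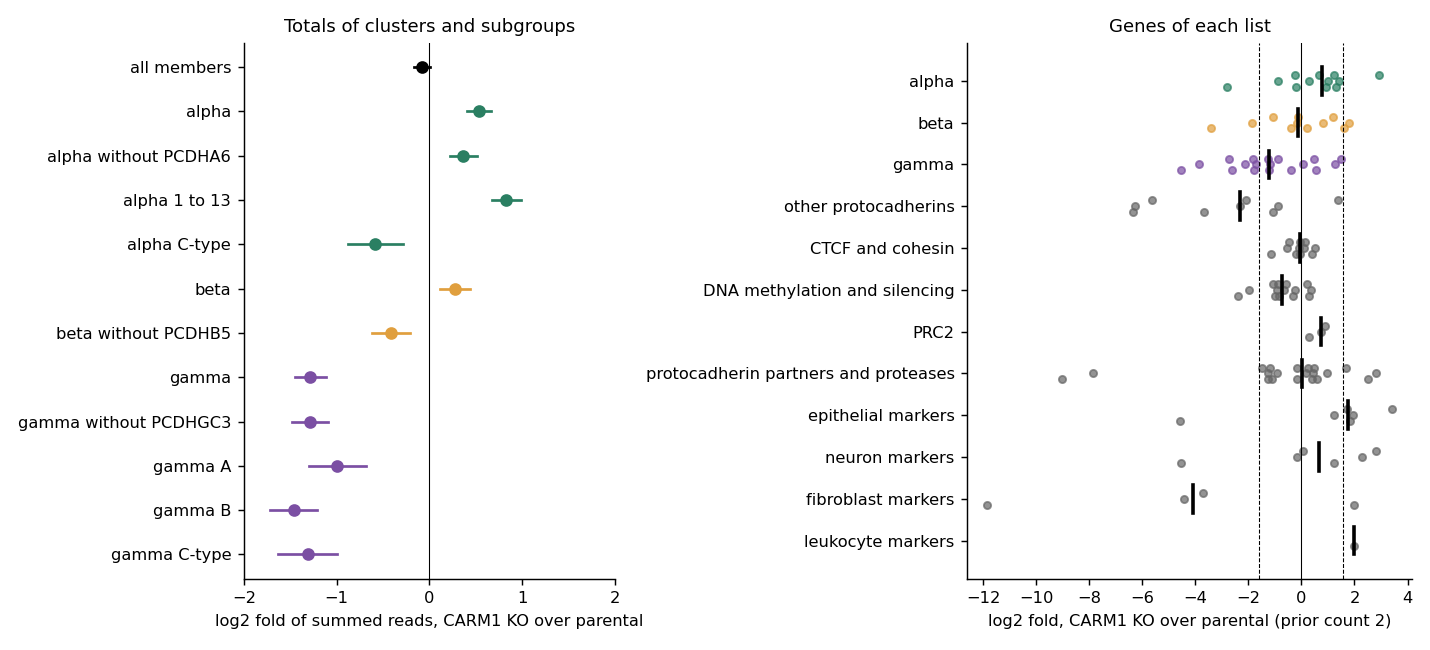
The left panel gives the log2 fold of summed reads (CARM1 KO over parental, TMM-scaled) for clusters and subgroups as points, with 95% counting intervals as lines. The right panel gives each gene with at least 10 reads as a point (log2 fold with a prior count of 2) and the median of each list as a bar, with dashed lines at 3-fold. The gamma totals sit below 0, the alpha total above it, and the beta total changes side without PCDHB5.

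Over single genes, 3 of the 41 with at least 10 reads (7.32%, against 12.7% of all genes) were more than 3-fold higher in CARM1 KO cells and 11 (26.8%, against 11.8% of all genes) more than 3-fold lower. The other 27 were within 3-fold. The members have few reads: the median over all 51 was 41 in both libraries together, beside 586 over the 18563 genes. How this bore on the shares past 3-fold was not tested. The genes past 3-fold were 1 higher and 1 lower in the alpha cluster and 2 higher and 2 lower in the beta cluster. In the gamma cluster none was higher and 8 were lower. Of these 8, PCDHGA5 and PCDHGC4 had no CARM1 KO read. With 0 set to the 3 reads that it allows, a gene with all its reads in 1 library passes by that rule alone. Of all 18563 genes, 522 had all their reads in 1 library. The interval lay wholly past 3-fold for 1 higher gene, PCDHA10, and for 5 lower ones, PCDHA11, PCDHB8, PCDHGB1, PCDHGA10 and PCDHGB7. These are 2.44% and 12.2% of the 41, against 6.81% and 6.71% of all genes. The members share reads and neighbouring promoters, so they are not independent of each other.

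**Figure D2:**
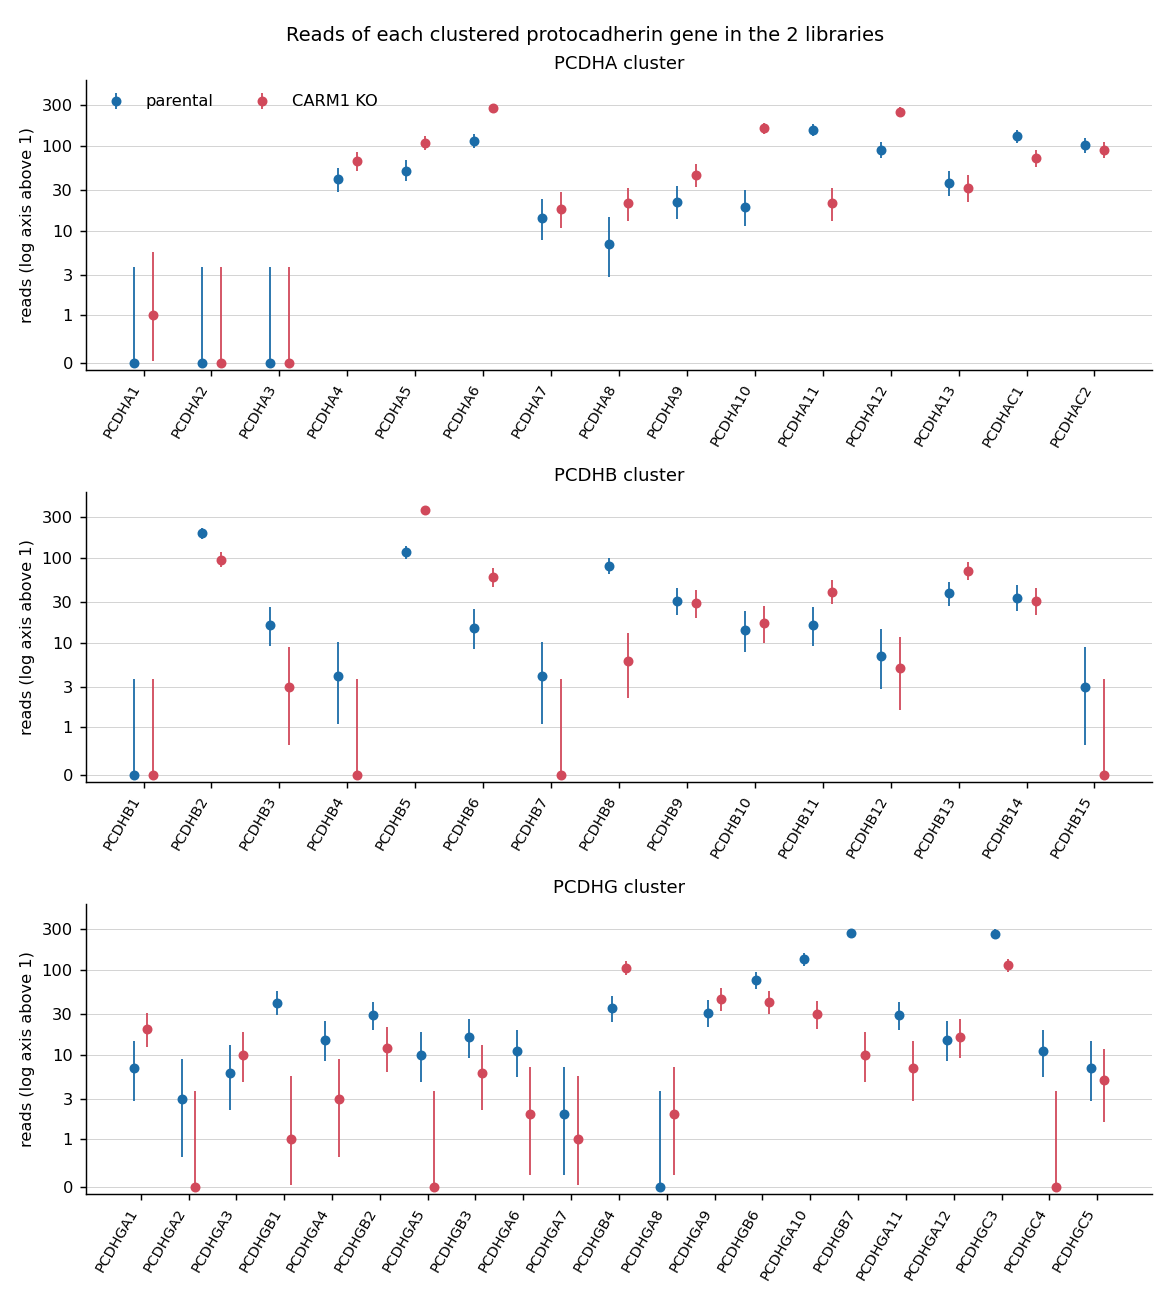
Reads of each of the 51 genes in order along the chromosome (log axis above 1 read, with 0 drawn), in parental (blue) and CARM1 KO cells (red), with exact 95% Poisson intervals as lines. PCDHA10 and PCDHA11 lie side by side with 19 and 161 reads and with 154 and 21 reads, and PCDHGB7 had 272 and 10 reads.

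In the alpha cluster, 2 neighbours went opposite ways. PCDHA10 (ENSG00000250120) had 19 parental and 161 CARM1 KO reads, 8.21-fold higher (5.09 to 14). The next gene, PCDHA11 (ENSG00000249158), starts 12.3 kb further on and had 154 and 21 reads, 7.57-fold lower (4.78 to 12.6). Both intervals lie wholly past 3-fold, in opposite directions. PCDHA12, which follows, had 89 and 250 reads, 2.72-fold higher (2.13 to 3.50), and PCDHA6, the alpha gene with most reads, had 113 and 278 reads, 2.38-fold higher (1.91 to 2.99). Both are within 3-fold. PCDHA4, PCDHA5, PCDHA8 and PCDHA9 were also higher, by 1.60-fold to 2.91-fold, with intervals that stayed above no change. For PCDHA7 (14 and 18 reads), PCDHA13 (36 and 32 reads) and PCDHAC2 (102 and 89 reads) the interval took in no change. PCDHAC1 had 130 and 71 reads, 1.89-fold lower (1.41 to 2.56). The genes at the start of the cluster were nearly without reads, since PCDHA1 had 0 and 1 read.

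Each gene's share of its cluster's reads is free of the scaling between libraries. PCDHA11 was the leading alpha gene in parental cells, with 19.8% of alpha reads (17.1% to 22.8%), and held 1.81% (1.12% to 2.75%) in CARM1 KO cells. PCDHA10 went from 2.45% (1.48% to 3.79%) to 13.9% (11.9% to 16.0%). The leading gene in CARM1 KO cells was PCDHA6, with 23.9% against 14.5% in parental cells, followed by PCDHA12 with 21.5% against 11.5%. The 4 leading genes held 64.2% of alpha reads in the parental library and 68.6% in the other, and only PCDHA6 was among them in both libraries.

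In the beta cluster PCDHB5 took over the lead from PCDHB2. PCDHB5 had 116 and 364 reads, 3.04-fold higher (2.46 to 3.78), and its share of beta reads went from 20.2% (17.0% to 23.7%) to 50.6% (46.9% to 54.3%). With library size as the only scaling the fold was 2.99, under the threshold. PCDHB2 had 195 and 95 reads, 2.12-fold lower (1.65 to 2.74), and its share went from 34.0% to 13.2%. PCDHB6, the neighbour of PCDHB5, had 15 and 59 reads, 3.81-fold higher (2.13 to 7.23).

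PCDHB8 showed the lowest level in CARM1 KO cells relative to parental of all beta genes with at least 10 reads. It had 81 and 6 reads, 13.9-fold lower (6.13 to 39.1), and its share went from 14.1% (11.4% to 17.2%) to 0.834% (0.307% to 1.81%). Its reference transcript has the lowest share of unique stretches of the beta genes, 65.6%. PCDHB3 had 16 and 3 reads, a ratio of 5.51-fold lower with an interval from 1.58 to 29.5. PCDHB13, with 38 and 70 reads, and PCDHB11, with 16 and 40 reads, were 1.78-fold and 2.42-fold higher with intervals above no change. PCDHB9, PCDHB10, PCDHB12 and PCDHB14 had intervals that took in no change, and PCDHB4, PCDHB7 and PCDHB15 had at most 4 parental reads and none in CARM1 KO cells.

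**Figure D3:**
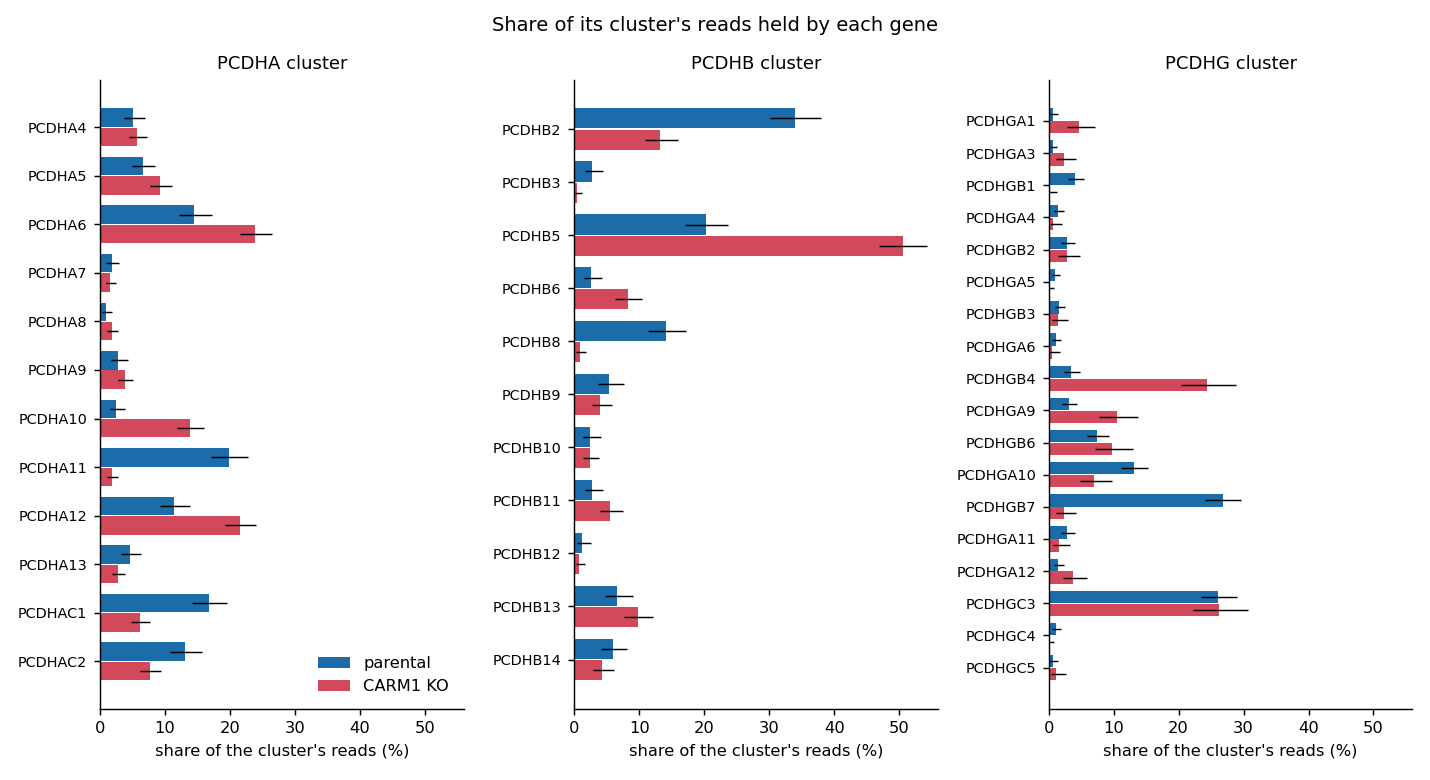
Share of its cluster's reads (%) held by each gene with at least 10 reads, in parental (blue) and CARM1 KO cells (red), with exact 95% binomial intervals as lines. PCDHA11, PCDHB8 and PCDHGB7 go from 19.8%, 14.1% and 26.8% to under 3%, while PCDHGC3 stays at 26.1% and 26.3%.

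In the gamma cluster 13 of the 18 genes with at least 10 reads were lower in CARM1 KO cells, beside 9556 of all 18563. Intervals below no change were held by 12 of the 18, beside 7043 of the 18563. PCDHGB7 (ENSG00000254122), the leading gamma gene in parental cells, had 272 and 10 reads, 28.1-fold lower (15 to 59.2), and its share went from 26.8% (24.1% to 29.7%) to 2.33% (1.12% to 4.24%). The genes on either side of it were lower too. PCDHGA10, whose start lies 4.7 kb before it, had 133 and 30 reads, 4.58-fold lower (3.06 to 7.05), and PCDHGA11, whose start lies 3.4 kb after it, had 29 and 7 reads, 4.28-fold lower (1.83 to 11.6). These 3 genes are consecutive, and all 3 are past 3-fold in the same direction.

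PCDHGB1 had 41 parental reads and 1 CARM1 KO read, a ratio of 42.3-fold lower with an interval from 7.19 to 1713. PCDHGA4 had 15 and 3 reads (5.16-fold lower, 1.46 to 27.8) and PCDHGA6 had 11 and 2 reads (5.68-fold lower, 1.24 to 52.7). PCDHGA5 and PCDHGC4 had 10 and 11 parental reads and none in CARM1 KO cells. They were 3.44-fold and 3.79-fold lower when 0 is set to the 3 reads that it allows, with intervals from 2.31 and 2.59 upward. These genes have few reads, and apart from PCDHGB1 their intervals reach within 3-fold.

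PCDHGB4 went against the direction of the cluster's total. It had 35 and 105 reads, 2.91-fold higher (1.96 to 4.39), and its share of gamma reads went from 3.45% (2.42% to 4.77%) to 24.4% (20.4% to 28.8%). Only 45.8% of the stretches of its reference transcript are unique, the lowest share of the gamma genes, and PCDHGB5, with the same promoter stretch of 30 bases, was not analysed here. PCDHGA1 was also higher, 2.77-fold (1.12 to 7.74), with 7 and 20 reads. The counts of PCDHGA9 (31 and 45 reads), PCDHGA3 (6 and 10 reads) and PCDHGA12 (15 and 16 reads) gave intervals that took in no change.

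PCDHGC3, a C-type gene expressed widely outside neurons, followed its cluster. It had 265 and 113 reads, 2.42-fold lower (1.94 to 3.05), and its share of gamma reads was 26.1% (23.5% to 29%) and 26.3% (22.2% to 30.7%). PCDHGB6, PCDHGB2 and PCDHGB3 were 1.87-fold, 2.50-fold and 2.75-fold lower. PCDHGC5 had 7 and 5 reads, and PCDHGA2, PCDHGA7 and PCDHGA8 had at most 3 in both libraries together. Fewer cells that use a gene and less RNA in each cell cannot be told apart in these bulk libraries.

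The level of one gene against another was compared only per length, as scaled reads per 1000000 reads and per kb of the reference transcript, which for alpha and gamma genes includes the shared exons. In parental cells the highest values were 1.84 for PCDHGB7, 1.80 for PCDHGC3, 1.54 for PCDHB2 and 1.10 for PCDHB5. In CARM1 KO cells they were 3.33 for PCDHB5, 1.62 for PCDHA6, 1.45 for PCDHA12 and 0.930 for PCDHA10. Of these leading genes only PCDHB5 was common to both libraries.

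The number of genes in use, taken as those with at least 10 reads in a library, was 11 in parental and 12 in CARM1 KO cells for the alpha cluster, 10 and 8 for the beta cluster, and 15 and 10 for the gamma cluster. For alpha and gamma these numbers went the way of the cluster's total. For beta the number was lower in CARM1 KO cells while the total was higher. The 4 leading genes held 74.9% and 81.8% of beta reads, and 73.6% and 70.9% of gamma reads.

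The genes around the clusters were compared as a background of the region. TAF7, a subunit of the general transcription factor TFIID, lies between the beta and gamma clusters and had 5811 and 4663 reads, 1.29-fold lower (1.24 to 1.34). Of the 10 nearest protein-coding genes with at least 10 reads on either side, 7 were higher and 13 lower. The interval lay off no change for 5 of the higher and 9 of the lower ones. After the gamma cluster, FCHSD1, ARAP3 and PCDH1 were 2.19-fold, 2.45-fold and 2.64-fold higher, and NDFIP1 was 2.01-fold lower. Of the 20, 1 was past 3-fold, against 12.7% of all genes higher and 11.8% lower. That gene was CD14, with 1 and 9 reads, a ratio of 8.72-fold higher with an interval from 1.21 to 382. HARS2 and ZMAT2, next before the alpha cluster, were 1.25-fold and 1.27-fold lower, and DIAPH1 and HDAC3, next after the gamma cluster, were 1.05-fold and 1.05-fold lower with intervals that took in no change. Summed, the genes of both sides were 1.14-fold lower (1.12 to 1.16). The 2 other protein-coding genes within the clusters, AC005609.1 and SLC25A2, had 5 reads or fewer in both libraries together.

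**Figure D4:**
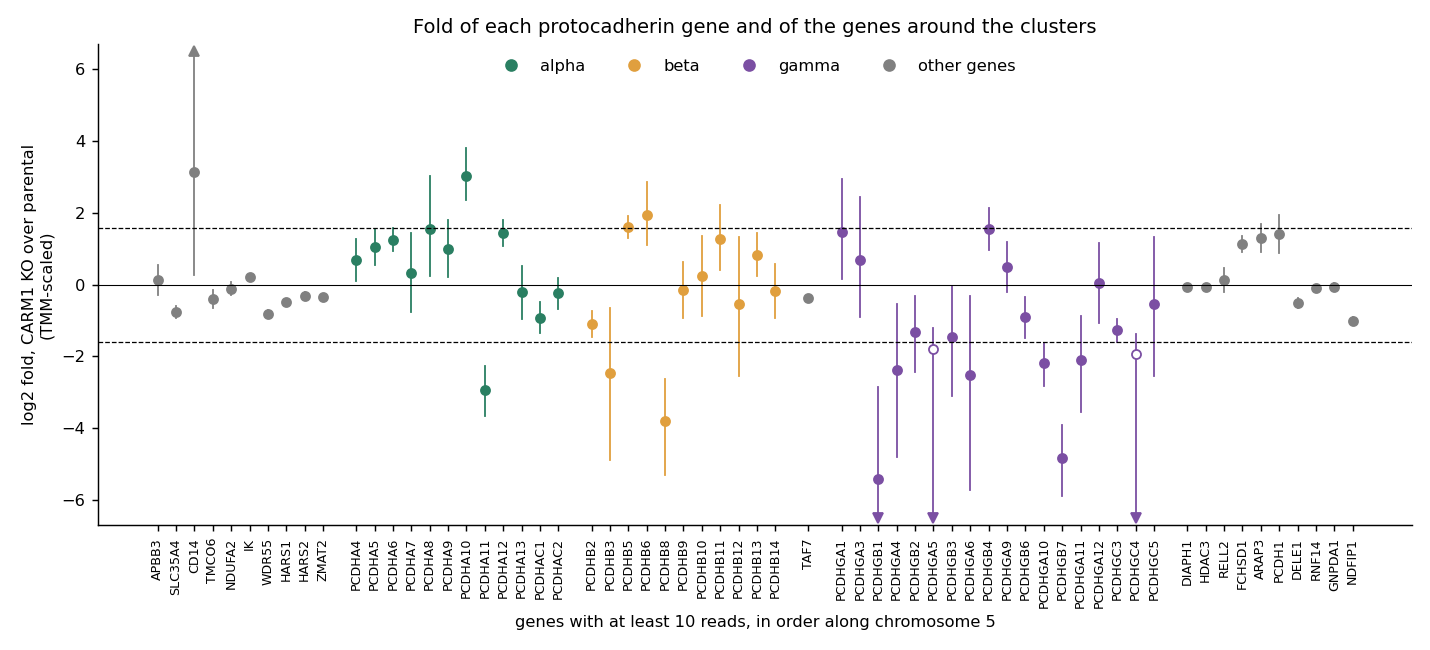
The log2 fold (CARM1 KO over parental, TMM-scaled) of each gene with at least 10 reads in order along chromosome 5, with 95% counting intervals as lines. Arrows mark where they run off the axis, open points mark folds with 0 set to 3 reads, and dashed lines lie at 3-fold. Of the 20 grey genes on either side of the clusters 1 is past 3-fold, while 5 higher and 9 lower have intervals off no change. Neighbours such as PCDHA10 (3.04) and PCDHA11 (−2.92) lie far apart.

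The protocadherin genes outside the clusters, which have their own promoters and tails, were lower over a wider range. Of 12 listed, 11 were found and 9 had at least 10 reads. None was more than 3-fold higher, and 6 (of 9, against 11.8% of all genes) were more than 3-fold lower. PCDH9 had 13727 and 182 reads, 77.9-fold lower (67.3 to 90.7), PCDH10, often methylated in tumours, had 9072 and 185 reads, 50.6-fold lower (43.8 to 58.9), and PCDH18 had 1416 and 16 reads, 91.4-fold lower (56.1 to 160.3). PCDH17 with 172 and 34 reads and PCDH19 with 52 and 11 reads were 5.22-fold and 4.88-fold lower. PCDH15, with 23 and 0 reads, was 7.92-fold lower with 0 set to 3 reads, with an interval from 5.94 upward. PCDH1, which lies after the gamma cluster, had 44 and 120 reads, 2.64-fold higher (1.86 to 3.82).

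The medians of log2 fold, with a prior count of 2, were 0.79 for the alpha genes, −0.13 for the beta genes, −1.23 for the gamma genes and −2.32 for the other protocadherins, beside −0.03 for all genes. With genes at 0 reads set to their bound, those of the gamma genes, the other protocadherins and all genes were −1.39, −2.39 and −0.04.

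The regulators known for these clusters were given next. None of the 11 genes for CTCF and cohesin was past 3-fold, against 12.7% of all genes higher and 11.8% lower. The interval lay off no change for 4 higher and 5 lower ones, beside 6844 and 7043 of all 18563 genes. SMC1A, a cohesin subunit, had the largest difference, 2.23-fold lower (2.15 to 2.31). CTCF, which binds the promoters and enhancers, had 2842 and 2809 reads, 1.04-fold lower with an interval that took in no change. RAD21, the cohesin subunit with most reads, had 26507 and 19563 reads, 1.40-fold lower. The median of the list was −0.06, close to that of all genes.

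Of 15 genes listed for DNA methylation and silencing, 14 were found. None was more than 3-fold higher, against 12.7% of all genes, and 2 of the 14 were more than 3-fold lower, against 11.8%, so the lower count is near that of all genes. These were TET1 (1754 and 347 reads, 5.22-fold lower, 4.65 to 5.87) and TET2 (3656 and 963 reads, 3.92-fold lower, 3.65 to 4.21), which oxidise methylated cytosine. DNMT1, the maintenance methyltransferase, was 1.30-fold higher, DNMT3B, a de novo methyltransferase, 2.11-fold lower, and SMCHD1, a repressor of these clusters in mice, 1.84-fold lower. The gene with most reads was DNMT1, with 9373 and 12588 reads. The 3 PRC2 genes were within 3-fold, and EZH2, its methyltransferase, had 3141 and 5380 reads, 1.66-fold higher (1.59 to 1.73).

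Of 22 genes listed for partners, kinases and proteases of protocadherins, 20 were found. Of these 3 were more than 3-fold higher, against 12.7% of all genes, and 2 more than 3-fold lower, against 11.8%, both near the shares of all genes. FYN and PRKCA, kinases, had 262 and 1550 reads and 392 and 2864 reads, 5.73-fold and 7.07-fold higher. RET, a receptor kinase that binds alpha and gamma proteins, had 2 and 11 reads, a ratio of 5.33-fold higher with an interval from 1.16 to 49.4. PDCD10, an adaptor that binds protocadherin tails, had 2035 and 7 reads, 300.2-fold lower (145.4 to 747.7), and NLGN1, a synaptic adhesion protein, had 4076 and 6 reads, 702-fold lower (322.0 to 1913). NCKAP1 of the WAVE complex, the gene with most reads, had 11284 and 10337 reads, 1.13-fold lower.

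The medians of log2 fold over these lists, to be read beside −0.03 for all genes, were −0.74 for DNA methylation and silencing, 0.73 for PRC2 and 0.00 for the partners, the last of which was just under 0 with library size as the only scaling. Over the markers described next they were 1.77 for epithelial, 0.65 for neuron and −4.07 for fibroblast markers, and −4.51 for the last with genes at 0 reads set to their bound. The neuron median was −0.87 over genes with at least 50 reads.

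Several markers of cell types differed between the libraries, and others did not. Of 6 epithelial genes with at least 10 reads, 4 were more than 3-fold higher and 1 lower. The counts were 2 and 1 of 6 neuron genes and 1 and 3 of 4 fibroblast genes. Of all genes 12.7% were higher and 11.8% lower. Of 8 epithelial markers, EPCAM, CDH1, KRT8 and PAX8 were 3.30-fold, 17.1-fold (3 and 53 reads, 5.54 to 85.6), 3.87-fold and 3.58-fold higher. KRT18 was 2.34-fold higher. KRT19 with 45 and 0 reads was 15.5-fold lower with 0 set to 3 reads, with an interval from 12.1 upward. The epithelial sum was 39370 and 123645 reads. WT1 and MUC16, markers of serous ovarian carcinoma, had at most 8 reads in either library. Of 4 fibroblast markers, COL1A1 was 3.97-fold higher. PDGFRA with 14326 and 2 reads was 7397-fold lower (2047 to 61087), and LUM with 61 and 1 read was 63.0-fold lower (10.9 to 2528). DCN with 24 and 0 reads was 8.26-fold lower with 0 set to 3 reads, with an interval from 6.22 upward. The fibroblast sum was 14542 and 540 reads.

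Of the 8 neuron markers found, TUBB3 was 7.13-fold higher and DCX with 2 and 18 reads was 8.72-fold higher (2.09 to 77.4). SYP with 202 and 7 reads was 29.8-fold lower, and STMN2 and ELAVL4 had no read. SNAP25 with 8 and 22 reads was 2.66-fold higher (1.14 to 6.92). For RBFOX3 (10 and 11 reads) and MAP2 (10 and 9 reads) the interval took in no change. The neuron sum was 678 and 3350 reads, of which TUBB3 gave 446 and 3283. Of the leukocyte markers CD68 was 3.98-fold higher with 400 and 1644 reads, while CD3E had no read and PTPRC 6 and 0. The endothelial marker CDH5 had no read. The part of these differences in those of the protocadherins was not tested.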

How the data were processed

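RNA was sequenced as 75 bp paired-end reads from ScriptSeq Gold libraries on an Illumina NextSeq instrument. Alignment by the authors used bowtie2 and hg19, and they estimated a count for each Ensembl gene with RSEM (version 1.2.3 in the submitters' processing notes). The deposited counts are whole numbers without normalization. Whether strand was used and the Ensembl release are not given in the sources used here.

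Genes were named with GENCODE release 44 lifted to GRCh37 (the build of hg19), which held 55501 of 57736 identifiers and may differ from the authors' annotation. Counts were scaled by TMM in edgeR 4.0.16 under R 4.3.3, set on the 18563 genes whose reads summed to at least 10 over the libraries. Genes were called at the study's fold threshold of 3. The study also required an FDR under 0.05 from edgeR. Calls here were made without a test, since with 1 library per group the spread would have to be assumed. A count of 0 was set to 3 reads for a fold, which leaves out the counting error of the other library. Intervals are exact 95% binomial (Clopper-Pearson) or Poisson intervals from scipy 1.17.1. Reads carry no molecular identifiers. List medians used a prior count of 2. The steps were tested on simulated data.

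Genes named are CARM1, members with at least 10 reads, list genes past 3-fold or with most reads, and genes within or next to the clusters; any other gene was named after its values were seen. The members and lists were chosen with earlier results of these data known. Reference transcripts are the canonical ones, or the longest for PCDHA6 and PCDHA7. Alternatives were upper-quartile scaling, size factors from DESeq2 1.42.0, library size alone, library size from protein-coding genes, other minimums of reads, a fold of 2, edgeR's exact test with assumed spreads and a prior count of 0.5. Intervals wholly past 3-fold and totals without the leading gene were added after seeing the data. ChIP-seq data were not used here.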

Additional observations from a re-analysis of the deposited data

How the results depend on the processing

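No paired analysis was possible because each group has 1 library, and for the same reason no library could be left out. Under the 4 other scalings the 11 lower members remained past 3-fold, and of the 3 higher ones PCDHB5 was lost with library size only and with the size from protein-coding genes, leaving 2. With at least 50 reads, 3 higher and 4 lower members passed, beside 1622 higher and 1248 lower genes of all. The lower genes of the gamma cluster went from 8 to 2. Fewer genes enter at that minimum, and shares of the genes entered were not computed. At a fold of 2 there were 10 higher and 15 lower members, beside 3591 higher and 3568 lower genes of all. edgeR's exact test at a coefficient of variation of 0.4 (FDR under 0.05) left 1 higher and 4 lower members, beside 532 and 894 of all genes. At coefficients of 0.12 and 0.2 it left 3 higher and 10 and 9 lower members, beside 2204 and 2111 higher and 1968 and 1859 lower genes of all. With the interval wholly past 3-fold the counts were 1 and 5 members and 1264 and 1245 of all genes. The ratio of the alpha total (CARM1 KO over parental) was 1.45, and 1.29 without PCDHA6. The ratio of the beta total was 1.21, and 0.751 without PCDHB5. With at least 50 reads the median log2 fold of the members went from −0.20 to 0.15, that of the beta genes from −0.13 to 0.32, that of the partners from 0.00 to −0.19 and that of the neuron markers from 0.65 to −0.87. The partners' median was −0.022 with library size only and −0.053 with the size from protein-coding genes. The fibroblast markers' median was −4.07, and −5.52 with a prior count of 0.5. The cause of these changes was not tested. Depth limits single genes: PCDHGA5, with 10 parental reads and none in CARM1 KO cells, gives 3.44-fold with 0 set to 3 reads. Its interval runs from 2.31 upward.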

Other observations

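The clusters also hold 5 protocadherin pseudogenes in the table, described here after their values were seen. PCDHA14, in the alpha cluster, had 5 parental and 31 CARM1 KO reads, 6.0-fold higher (2.31 to 19.8). PCDHGB8P, in the gamma cluster, had 16 and 3 reads, a ratio of 5.51-fold lower with an interval from 1.58 to 29.5. Each thus had the direction of its cluster's total. The beta pseudogenes PCDHB17P, PCDHB18P and PCDHB19P had at most 1 read in either library. Near-identical copies can divide reads with the genes beside them, so these counts are uncertain.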
